A study of Homo sapiens with 6 samples.

Results

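The genes described here were the members of the HOXA, HOXB and HOXD clusters, 29 genes of the 60676 in the count table. They were 10 HOXA, 10 HOXB and 9 HOXD genes, taken as the rows whose Ensembl identifier matched the member's symbol. That matching rule uses no measured value, but the members were chosen with earlier results of these data known. RNA was measured in SK-N-BE, a human MYCN-amplified neuroblastoma cell line and therefore a single tumour-derived genotype. All cells were differentiated for 1.5 days with 10 μM retinoic acid, in the control group too, so that no library shows the genes without it. The si-SCR group (n = 3) received a scrambled siRNA and the si-CyCoNP group (n = 3) received siRNAs against the second exon of the long noncoding RNA CyCoNP, whose gene is LINC02381 and lies on another chromosome than the 3 clusters.

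HOX genes encode homeodomain transcription factors that give cells along the body axis their regional identity. They lie in clusters in which the order of the genes matches the order of their domains, with low paralog numbers used in the hindbrain and high paralog numbers used towards the tail and in the limbs. Retinoic acid switches on the low-numbered genes first in many cell types, through retinoic acid receptors bound to repeated half-sites in the clusters. Polycomb complexes keep unused clusters silent, and MLL complexes and the demethylases of the UTX family counteract them.

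Direct repeats of the retinoid half-site in the clusters are shown first, because every library came from retinoic acid-treated cells. The words AGGTCA or AGTTCA or GGGTCA or GGTTCA were searched on both strands of GRCh38 as direct repeats with a spacer of 5 bases. Each of the 3 clusters held exactly 1 such repeat, and in each cluster it lay inside the gene of paralog number 3. The half-sites are in capitals and the spacer in lower case.
HOXA, chr7:27113524-27113540, minus strand: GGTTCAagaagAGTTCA
HOXB, chr17:48555430-48555446, minus strand: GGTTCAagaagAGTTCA
HOXD, chr2:176165913-176165929, plus strand: GGTTCAagcagAGTTCA
The HOXA and HOXB repeats were identical over their 17 bases, and the HOXD repeat matched each of them at 16 of the 17. The repeats started 17240 bases (HOXA), 22904 bases (HOXB) and 14363 bases (HOXD) after the annotated start of the gene of paralog number 4 of the same cluster. The HOXA and HOXD repeats were intronic, and the HOXB repeat fell in an exon of a HOXB3 transcript. Over 61 bases centred on the repeat, the HOXA window was identical at 65.6% of positions to the HOXB window and at 54.1% to the HOXD window. A repeat of this kind was present in 17.3% of genome windows as long as the HOXA cluster, in 31.3% of windows as long as HOXB and in 17.1% of windows as long as HOXD. Direct repeats with a spacer of 2 bases were also searched, and gave 1 in HOXA, 5 in HOXB and 1 in HOXD. The HOXD one lay inside HOXD3, and those of HOXA and HOXB lay outside the genes of paralog number 3. Repeats with this shorter spacer were present in 86.5%, 95.5% and 85.9% of genome windows as long as HOXA, HOXB and HOXD. A match is a description of the sequence and not a receptor binding site.

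The 3 clusters differed widely in their read counts. HOXD gave 3220 counts over the 6 libraries, which was 99.4% of the counts of all members, and HOXA and HOXB together gave 19. The libraries held between 3762009 and 4799407 counts, and 3 counts in a library corresponded to between 0.625 and 0.797 CPM (counts scaled to the library total). For a gene with no count in any library, the limit of 3 counts over all 6 libraries was 0.115 CPM, which covers counting error only. Of the 20 HOXA and HOXB members, 14 had no count in any library.

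In the HOXA cluster, HOXA2, HOXA4, HOXA5, HOXA9, HOXA10 and HOXA11 had no count. HOXA3, a pharyngeal arch and hindbrain gene, had 0, 0 and 0 counts in si-SCR, against 4, 0 and 1 after depletion. HOXA6 had 0, 2 and 0 counts in si-SCR and none in si-CyCoNP. HOXA7 had 1, 0 and 0 counts in si-SCR, against 2, 0 and 2 after depletion. HOXA13, a gene of the distal limb and genital tubercle, had none in si-SCR, against 3, 0 and 0 after depletion. The si-CyCoNP libraries held 12 of the 15 HOXA counts, 9 of them in replicate 1, and the replicate 2 library of si-CyCoNP held none. With no filter on low values, edgeR's quasi-likelihood test gave HOXA3 an adjusted p of 0.251 and the other 3 genes larger values, so that no difference was detectable at this depth.

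In the HOXB cluster, HOXB3 had 1 count in each si-CyCoNP library and none in si-SCR, and HOXB8 had 1 count in the replicate 1 library of si-CyCoNP. The other members, HOXB1, HOXB2, HOXB4, HOXB5, HOXB6, HOXB7, HOXB9 and HOXB13, had no count. HOXB3 had an adjusted p of 0.433 in edgeR's test with no filter. The noncoding RNAs of the 2 clusters were as low as their coding genes. HOTAIRM1, HOTTIP, HOXA-AS3, HOXA10-AS, HOXA11-AS, HOXB-AS2, HOXB-AS3 and HOXB-AS4 had no count, and HOXA-AS2 and HOXB-AS1 had 1 count each. Of the neighbouring genes, EVX1, PRAC1 and PRAC2 had none, SKAP1 had 4 counts in a single si-CyCoNP library, and SKAP2 beside HOXA had 4 to 12 counts in every library.

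**Figure D1:**
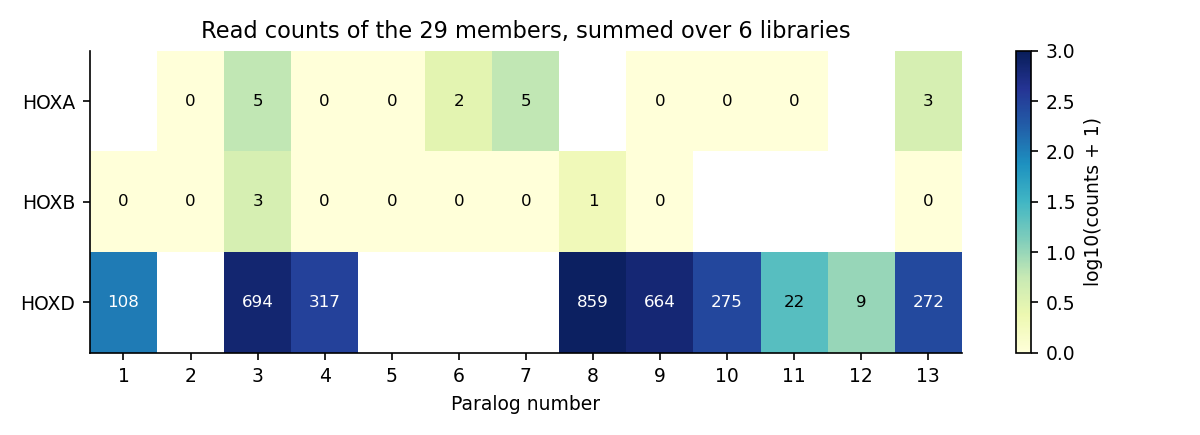
Read counts of each member summed over 6 libraries, with clusters in rows and paralog numbers in columns; a blank cell holds no member and the colour gives log10(counts + 1). HOXD cells hold from 9 counts (HOXD12) to 859 counts (HOXD8), and no HOXA or HOXB cell holds more than 5.

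A gene was tested when its mean reached 1 FPKM (fragments scaled by exon length and by the library total) in either group, which 13966 genes did. Of the 29 members, 7 were tested and 22 were not, and all 7 were HOXD genes. By paralog number, 3 of the 10 members numbered 1 to 4, 1 of the 8 members numbered 5 to 8 and 3 of the 11 members numbered 9 to 13 were tested. The tested set was therefore the part of 1 cluster above the filter, and it says nothing about the response of HOXA and HOXB.

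In si-SCR the HOXD genes differed widely in level. HOXD9 was the highest at 16.7 ± 1.08 FPKM (SD, n = 3), followed by HOXD8 at 14.6 ± 1.83, HOXD4 at 11.97 ± 2.14 and HOXD3 at 8.34 ± 1.19. HOXD10 stood at 5.27 ± 0.825 FPKM, HOXD13 at 4.28 ± 0.865 and HOXD1 at 3.497 ± 0.938. HOXD11 and HOXD12, between HOXD10 and HOXD13 on the chromosome, stood at 0.350 ± 0.234 and 0.249 ± 0.161 FPKM. Neighbours in this order overlapped in their 3 values, except that HOXD4 lay above HOXD3, HOXD3 above HOXD10 and HOXD1 above HOXD11 in all libraries. The summed FPKM of the 9 HOXD genes was 62.9, 66.8 and 66.2 with the scrambled siRNA, against 50.3, 45.4 and 40.9 after depletion, so that si-CyCoNP stood at 69.7% of the si-SCR mean. In bulk RNA, fewer cells that express the cluster and less RNA per cell cannot be told apart.

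The siRNA target is given first as a check of the labels. LINC02381 had 14.9, 12.9 and 15.4 FPKM in si-SCR and 0.973, 1.65 and 0.676 FPKM in si-CyCoNP, with no overlap. Its log2 fold change was -3.78 (SE 0.190, edgeR adjusted p = 6.95e-14). The groups separated on the first principal component of all tested genes, which held 51.4% of the variance, and si-SCR replicate 3 lay nearest to the si-CyCoNP libraries.

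The 7 tested HOXD genes had log2 fold changes from -1.98 (HOXD1) to -0.01 (HOXD13) after CyCoNP depletion. Differences between members were not tested. At an adjusted p under 0.05, 5 of the 7 tested members were lower and 0 were higher, against 14.2% lower and 14.2% higher of all genes tested, and the other 22 of the 29 members had no test. The 5 were HOXD1, HOXD3, HOXD8, HOXD9 and HOXD10, and HOXD4 and HOXD13 did not pass. At a log2 fold change below -1 or above 1 in addition, 2 members were called lower and 0 higher, against 2.98% and 2.28% of all genes. The count of higher members stayed at 0 in DESeq2 and in the other alternatives run, and it was also 0 at an unadjusted p under 0.05. The median log2 fold change of the 7 tested members was -0.56, beside 0.005 over all genes tested. Of all genes tested, 16.1% had every si-CyCoNP value below every si-SCR value in FPKM, and HOXD1, HOXD8, HOXD9 and HOXD10 did so among the 7. Nothing in the labels says that the 3 libraries of a group came from separate cultures, so p-values measure the spread between these libraries.

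HOXD1, the 3′ end of the cluster and in mouse a gene of nociceptive sensory neurons, had the lowest log2 fold change of the 7 tested members. It had 4.57, 2.82 and 3.10 FPKM in si-SCR and 1.22, 0.499 and 1.02 FPKM in si-CyCoNP. All 3 si-CyCoNP values lay below the lowest si-SCR value, on 37, 20 and 28 counts against 11, 4 and 8. The log2 fold change was -1.98 (SE 0.389, 95% interval -2.78 to -1.18, edgeR adjusted p = 0.000290), which left 25.4% of the si-SCR level. Its si-CyCoNP mean of 0.912 FPKM was under the filter, so HOXD1 was tested only through its si-SCR mean. It stayed past the threshold in each alternative run, with adjusted p at most 0.0147. The edgeR fit with no filter was among these, with adjusted p = 3.97e-06. Its interval was the widest of the 7 tested members.

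HOXD3 and HOXD4, the next genes with low paralog numbers, belong to the hindbrain and neck domains. HOXD3 had 9.38, 7.04 and 8.60 FPKM in si-SCR and 7.22, 6.83 and 5.78 FPKM in si-CyCoNP. The groups overlapped, because the replicate 2 library of si-SCR lay below the highest si-CyCoNP library. Its log2 fold change was -0.40 (SE 0.150, edgeR adjusted p = 0.0448). This call did not hold in 8 of 14 alternatives, in which the adjusted p reached 0.212, among them DESeq2 (0.112) and the fits without si-SCR replicate 1, si-CyCoNP replicate 2 or si-CyCoNP replicate 3. HOXD4 had 10.0, 14.3 and 11.6 FPKM in si-SCR and 11.9, 9.32 and 7.22 FPKM in si-CyCoNP, again with overlap. Its log2 fold change of -0.38 (95% interval -0.84 to 0.07, edgeR adjusted p = 0.213) did not pass the test.

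HOXD8, the only HOXD gene numbered 5 to 8 and a gene of the trunk, had 13.3, 13.9 and 16.7 FPKM in si-SCR and 11.1, 8.68 and 11.5 FPKM in si-CyCoNP. The groups did not overlap. Its log2 fold change was -0.56 (SE 0.140, edgeR adjusted p = 0.00340), and on the FPKM scale limma gave adjusted p of 0.0523 and 0.0519 with pseudocounts of 1 and 0.1. HOXD9, which acts in the lower trunk and limb, had 17.05, 17.6 and 15.5 FPKM in si-SCR and 11.4, 11.8 and 8.77 FPKM in si-CyCoNP. Each si-CyCoNP value was below each si-SCR value, and the log2 fold change of -0.71 (SE 0.152, edgeR adjusted p = 0.000699) passed in all 14 alternatives.

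HOXD10, a gene of lumbar motor neurons and of the hindlimb, had 4.41, 5.33 and 6.06 FPKM in si-SCR and 2.48, 3.06 and 2.24 FPKM in si-CyCoNP. The groups were well apart. Its log2 fold change was -1.09 (SE 0.226, 95% interval -1.55 to -0.62, edgeR adjusted p = 0.000527), which left 47.0% of the si-SCR level. The adjusted p stayed under the threshold in all 14 alternatives, but the change was smaller than 1 on the log2 scale without si-SCR replicate 3 (-0.99), the control library nearest to the other group, and with limma, so that HOXD1 alone was then called. HOXD10 shares 18.2% of its exon bases with HOXD11 on the same strand, where counts are uncertain.

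HOXD11, HOXD12 and HOXD13 make up the 5′ end of the cluster and belong to the limb, tail and urogenital domains. HOXD11 had 3, 1 and 6 counts in si-SCR, against 3, 4 and 5 after depletion, and HOXD12 had 1, 4 and 3 counts against 1, 0 and 0. With no filter, edgeR gave HOXD12 an adjusted p of 0.252 and HOXD11 one of 0.913. HOXD13, whose expanded alleles cause synpolydactyly, had 3.76, 5.28 and 3.81 FPKM in si-SCR and 4.66, 4.77 and 3.79 FPKM in si-CyCoNP. The groups covered the same range, and the log2 fold change was -0.01 (95% interval -0.48 to 0.45, edgeR adjusted p = 0.976). The sign of this value turned in 5 of 14 alternatives, library totals among them.

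**Figure D2:**
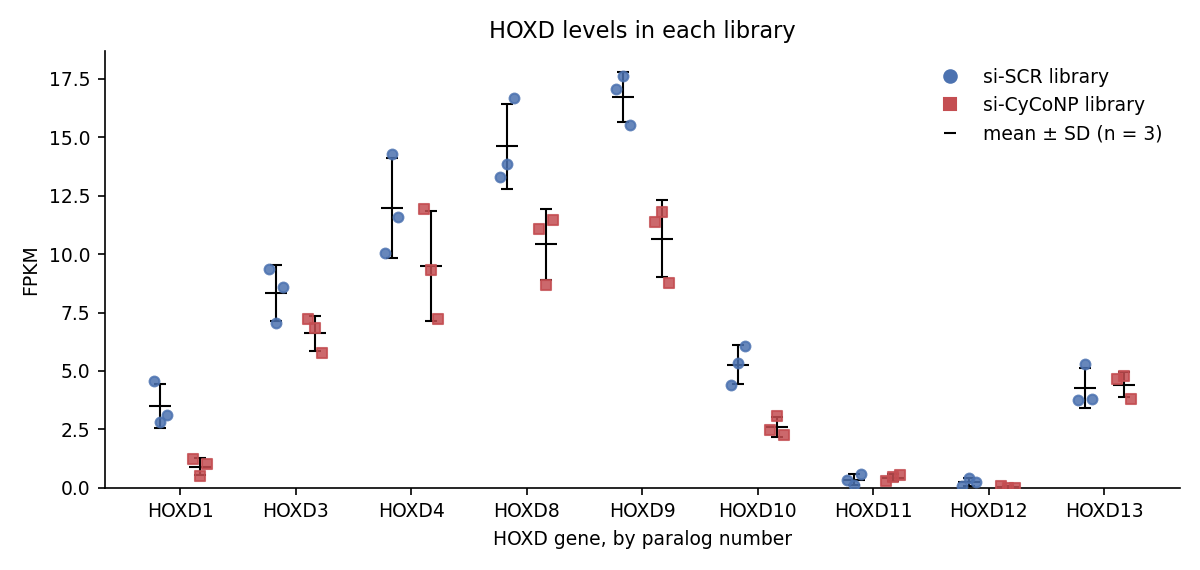
FPKM of the 9 HOXD genes in each library, ordered by paralog number; circles are si-SCR libraries, squares si-CyCoNP libraries and black marks the mean ± SD (n = 3). HOXD1, HOXD8, HOXD9 and HOXD10 have all si-CyCoNP values below the si-SCR values, and at HOXD13 the groups cover the same range.

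The difference between members was also read within libraries, on pairs chosen after the values had been seen. The log2 ratio of HOXD1 to HOXD13 counts was -0.66 ± 0.594 (SD, n = 3) in si-SCR and -2.72 ± 0.776 in si-CyCoNP, with every si-CyCoNP library lower. The log2 ratio of HOXD10 to HOXD13 was 0.46 ± 0.334 in si-SCR and -0.61 ± 0.135 in si-CyCoNP, so that HOXD10 had more counts than HOXD13 in all si-SCR libraries and fewer in all si-CyCoNP libraries. Because the pairs were chosen for their values, these ratios are a description with no test. The ordering of the FPKM means changed accordingly, with HOXD13 at 4.41 ± 0.535 and HOXD10 at 2.59 ± 0.422 FPKM in si-CyCoNP.

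**Figure D3:**
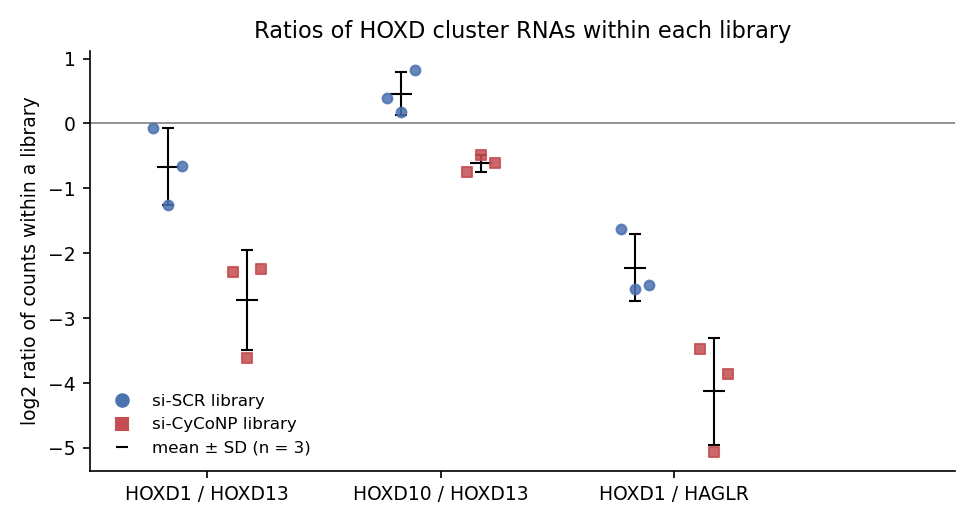
Log2 ratio of the counts of 2 RNAs within each library, for HOXD1 to HOXD13, HOXD10 to HOXD13 and HOXD1 to HAGLR; circles are si-SCR, squares si-CyCoNP and black marks the mean ± SD (n = 3). In each pair the si-CyCoNP libraries lie below all si-SCR libraries.

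Of the 3 noncoding RNAs of the HOXD cluster, 1 fell, 1 did not pass the test and 1 was under the filter. HOXD-AS2, transcribed on the opposite strand and sharing exon bases with HOXD3 and HOXD8, had 7.42, 7.57 and 8.18 FPKM in si-SCR and 5.03, 5.23 and 6.64 FPKM in si-CyCoNP. Its log2 fold change was -0.53 (SE 0.194, edgeR adjusted p = 0.0424), a call that was lost in 8 of 14 alternatives, with adjusted p up to 0.150. HAGLR, whose gene overlaps HOXD1 and HOXD3 from the opposite strand, had 5.18, 6.07 and 6.41 FPKM in si-SCR and 4.96, 6.11 and 5.46 FPKM in si-CyCoNP. Its groups overlapped, and its log2 fold change was -0.16 (95% interval -0.45 to 0.12, edgeR adjusted p = 0.418). The log2 ratio of HOXD1 to HAGLR counts went from -2.22 ± 0.517 in si-SCR to -4.13 ± 0.826 in si-CyCoNP, again a pair chosen for its values and given with no test. HAGLROS had 3 counts in si-SCR and 2 in si-CyCoNP.

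Some of these genes share exon bases with genes on the opposite strand. In the GENCODE annotation of GRCh38, 60.1% of the exon bases of HOXD1, 24.4% of those of HOXD8 and 14.1% of those of HOXD3 were also exonic on the opposite strand, and none of those of HOXD9, HOXD10 or HOXD13. For the noncoding RNAs the share was 49.3% for HOXD-AS2 and 13.8% for HAGLR. Of 793 genes that lay wholly under opposite-strand exons, 28.9% had a count, against 13.1% of 1432 genes that lay wholly under same-strand exons. Whether the counting used strand is not given in the sources used here, and an effect of the overlap on the values was not tested.

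Outside the cluster, LNPK on the HOXD13 side was higher in si-CyCoNP (log2 fold change 0.57, SE 0.0928, edgeR adjusted p = 2.61e-05) and MTX2 on the HOXD1 side was lower (-0.35, adjusted p = 0.0489). The MTX2 call was lost in 8 of 14 alternatives. EVX2, a homeobox gene next to HOXD13 that was under the filter and is named after its values were seen, had 1, 1 and 0 counts in si-SCR, against 6, 5 and 10 after depletion. With no filter, edgeR gave it an adjusted p of 0.0133.

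**Figure D4:**
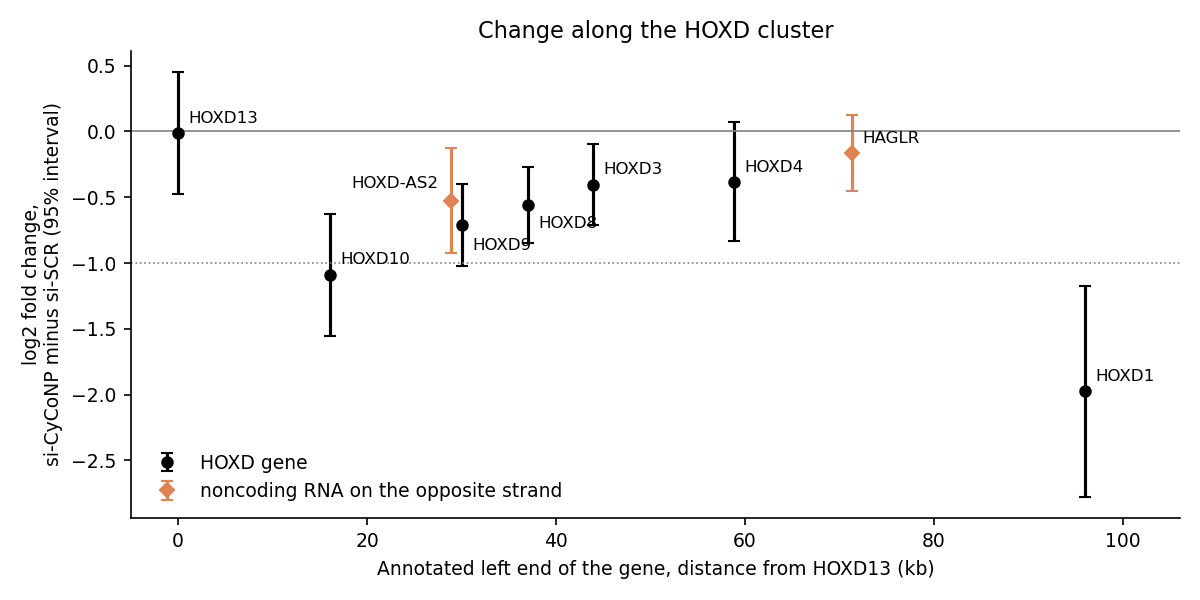
Log2 fold change (si-CyCoNP minus si-SCR) with its 95% interval against the distance in kb of the annotated left end of each gene from that of HOXD13; circles are the 7 tested HOXD genes and diamonds 2 noncoding RNAs on the opposite strand. HOXD1 and HOXD10 lie below -1 (dotted line), and HOXD4, HOXD13 and HAGLR have intervals that include 0.

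The promoters of HOXD1 and HOXD13 are printed because these genes are the outer ends of the cluster, HOXD1 with the lowest log2 fold change of the 7 tested members and HOXD13 with a log2 fold change near 0. RefSeq promoter entries of GRCh38.p14 matched 18 of the 29 members, HOXD1, HOXD3, HOXD4, HOXD8, HOXD10, HOXD11, HOXD12 and HOXD13 among them. The 250 bases before the start are given from 5′ to 3′, and capitals mark the words CCAAT and TATAAA and TGATNNAT on either strand, where N is any base.
HOXD1, chr2:176188418-176188667, plus strand: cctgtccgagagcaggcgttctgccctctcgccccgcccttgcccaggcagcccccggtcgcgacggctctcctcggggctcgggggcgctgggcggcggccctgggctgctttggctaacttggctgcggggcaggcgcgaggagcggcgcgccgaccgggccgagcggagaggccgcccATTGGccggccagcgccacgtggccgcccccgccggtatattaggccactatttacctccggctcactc
HOXD13, chr2:176092471-176092720, plus strand: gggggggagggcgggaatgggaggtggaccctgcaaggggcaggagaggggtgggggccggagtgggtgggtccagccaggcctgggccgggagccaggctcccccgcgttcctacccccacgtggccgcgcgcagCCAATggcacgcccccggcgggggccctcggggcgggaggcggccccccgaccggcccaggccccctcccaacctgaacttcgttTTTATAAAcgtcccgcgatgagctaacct
Both were GC-rich, with 74.8% G or C and 31 CpG dinucleotides for HOXD1 and 74.0% and 21 for HOXD13, beside medians of 58.0% and 11 over 35116 promoters of this length. CCAAT was found in both, in 6 of the 8 HOXD promoters and in 32.0% of all promoters. TATAAA was found in HOXD13, where its 2 matches overlap, in none of the other 7 and in 10.7% of all promoters. TGATNNAT, the word of HOX and PBX dimers, was found in HOXD11 of the 8 and in 6.47% of all promoters. The promoter of HOXD10 had 64.0% G or C with 1 CCAAT word and no TATAAA, and that of HOXD4 had 47.6% G or C and 4 CpG dinucleotides. A retinoid half-site occurred in 3 of the 8 HOXD promoters (HOXD8, HOXD10 and HOXD13) and in 33.8% of all promoters. These words are descriptions of the letters and do not show that a factor binds.

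The HOXC cluster is set beside HOXD because it was the only other transcribed cluster examined here. The paper describes HOXC as proximal to the CyCoNP locus, so it is not a cluster remote from the siRNA target. Of 9 HOXC genes, 6 were tested and 1 was past the threshold, lower in si-CyCoNP, near the 14.2% of all genes that were lower, with a median log2 fold change of -0.19. Its summed FPKM was 71.7 ± 13.8 in si-SCR and 65.3 ± 3.799 in si-CyCoNP, and that of HOXD was 65.3 ± 2.08 and 45.5 ± 4.73. Whether the 2 clusters differed in their response was not tested.

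The genes that work with HOX proteins moved in both directions. Of 9 TALE cofactors, homeodomain proteins that bind DNA together with HOX proteins, 7 were tested, 3 rose and 2 fell, where 14.2% of all genes tested rose and 14.2% fell. MEIS2 rose (log2 fold change 0.59, edgeR adjusted p = 7.5e-06) and so did PBX2 (0.29, adjusted p = 0.0464), a call that was lost in 8 of 14 alternatives. PBX3 (-0.40, adjusted p = 0.00345) and PKNOX1 (-0.52, adjusted p = 0.00732) fell. MEIS1 was tested and did not pass at -0.03.

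The regulators of HOX chromatin and of retinoid signalling are read against the same 14.2% in each direction. Of 24 Polycomb genes 23 were tested, 6 rose and 2 fell, with a median log2 fold change of 0.04, and the catalytic subunit EZH2 did not pass at 0.06. CBX6 (0.99), PHF1 (0.83), CBX2 (0.72) and PHC2 (0.44) were among those that rose, and PHC3 (-0.49) and PHF19 (-0.45) fell. Of 12 MLL and UTX genes all were tested, 5 rose and 1 fell. KDM6B, which removes the repressive methyl mark of Polycomb, rose by 1.23 on the log2 scale (edgeR adjusted p = 1.19e-09), and RBBP5 rose by 0.49, both in all 14 alternatives too. KMT2D (0.25), WDR5 (0.30) and KMT2C (0.21) also rose and ASH2L (-0.39) fell, and these calls were lost in 2, 6, 7 and 8 of 14 alternatives. Under alternatives the number of MLL and UTX genes that rose ran from 2 to 7 and the number that fell from 0 to 2.

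Of 21 retinoid and caudal regulators 13 were tested, 9 rose and 1 fell, against 14.2% of all genes in each direction, and the median log2 fold change was 0.62. CYP26B1 (1.71) and CYP26A1 (1.44), which degrade retinoic acid, rose, as did DHRS3 (1.58), which turns retinaldehyde back to retinol. CRABP2 (1.23), which carries retinoic acid to its receptors, also rose. RARB, a receptor gene that retinoic acid itself induces, rose by 1.14 (edgeR adjusted p = 0.000247), and CRABP1 fell by 0.73. GDF11, a growth factor that patterns the posterior trunk, rose by 0.62. CDX2 and CDX4, caudal activators of HOX genes, had no count and CDX1 had 4 counts in si-SCR and 1 in si-CyCoNP.

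Markers of neuroblastoma cells and of the mesenchymal cell type were read against the same share of 14.2% in each direction. All 13 neuroblastoma markers were tested, 10 fell and 1 rose, and none was at 0. GATA2 (-1.06), PHOX2A (-1.13), CHGB (-1.01) and CHGA (-1.24) fell by more than 1 on the log2 scale, and MYCN rose by 0.84. Their summed level lay between 2979 and 3484 FPKM in si-SCR and between 2370 and 2582 in si-CyCoNP. Of 14 mesenchymal type genes 12 were tested, 4 rose and 5 fell, and PRRX1 and COL1A2 were at 0. FN1 (2.88), COL3A1 (2.83) and COL1A1 (1.68) rose, and SNAI2 (-1.27), FOSL2 (-1.12) and DCN (-0.82) fell. The 4 that rose had si-SCR means under 1 FPKM, so they entered the tested set only through si-CyCoNP, where they were high. FN1, COL3A1 and COL1A1 had means of 0.697, 0.148 and 0.450 FPKM in si-SCR, against 5.41, 1.07 and 1.50 in si-CyCoNP. Under alternatives the number that rose ran from 2 to 5 and the number that fell from 4 to 6. The COL3A1 and DCN calls were lost with limma. The summed level of the mesenchymal type genes lay between 153 and 185 FPKM in si-SCR and between 145 and 150 in si-CyCoNP. The part of these shifts in the HOXD values was not tested.

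**Figure D5:**
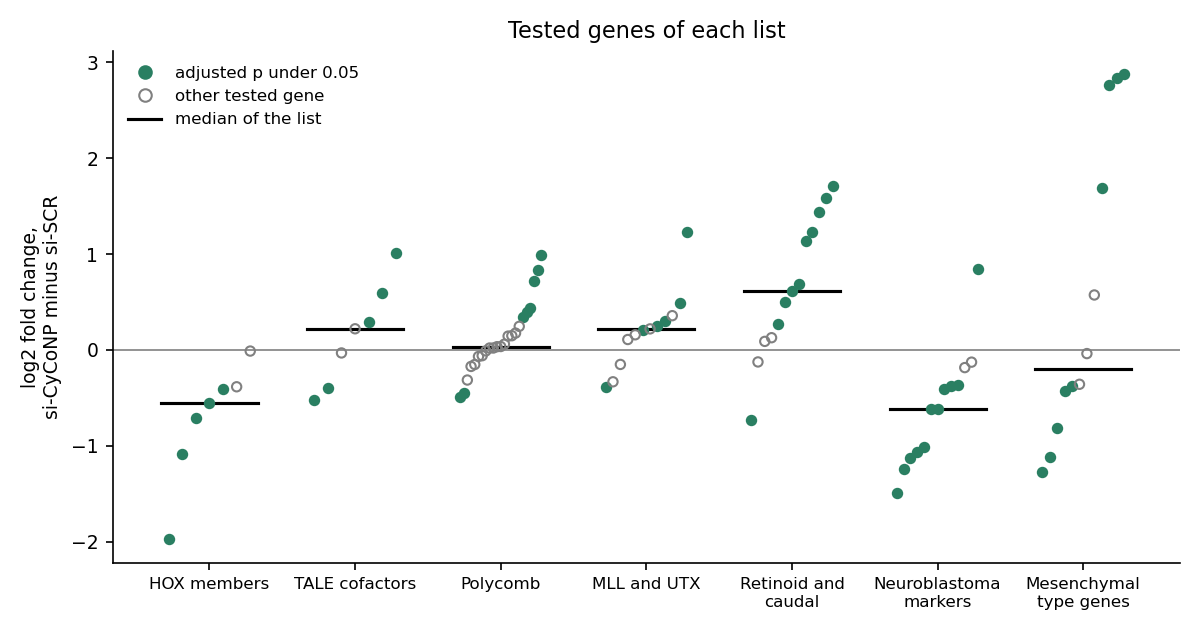
Log2 fold change (si-CyCoNP minus si-SCR) of every tested gene of each list; filled points have an edgeR adjusted p under 0.05, open points do not, and black lines are list medians. The HOX members have a median of -0.56 and no point above 0, and the retinoid and caudal regulators have a median of 0.62.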

How the data were processed

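RNA of 6 libraries was compared, 3 si-SCR and 3 si-CyCoNP, grouped by sample title. The authors prepared stranded, ribosomal RNA-depleted libraries, trimmed reads with Trimmomatic 0.39 and cutadapt 3.2, removed ribosomal reads with Bowtie2 2.4.2 and aligned with STAR 2.7.7a to GRCh38. The deposited counts are the authors' raw counts of uniquely mapping fragments per Ensembl gene, so that a fragment mapping equally to several HOX paralogs is not counted. The share of such fragments was not measured here. The deposited FPKM were made by the authors from the same counts, scaled by gene length and library total.

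After TMM normalisation, counts were compared by edgeR 4.0.16 (quasi-likelihood test, R 4.3.3), with Benjamini-Hochberg adjustment over the 13966 genes with a mean of at least 1 FPKM in either group. Called genes passed an adjusted p of 0.05 and changed by more than 1 on the log2 scale. The test was checked on simulated data. The study used DESeq2, run here as an alternative (1.42.0), as were limma 3.58.1 and others given in the closing section. Totals of 3762009 to 4799407 counts limit the precision for low genes, and intervals are those of the edgeR fit. These totals lie far below the number of reads per sample that the paper reports. Depth here therefore means the deposited counts, and the reason for the gap was not tested.

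The members and lists were chosen with earlier results of these data known. All 29 members are named, those of at least 1 FPKM with each library's value. Other lists are given by counts, naming at most 6 genes past the threshold by smallest p, with RARB and genes that did not pass added after values were seen. Values of 2 list genes are not reported here, and they enter only the list summaries. Sequences are from RefSeq promoters (GRCh38.p14) and the GRCh38 genome.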

Additional observations from a re-analysis of the deposited data

How the results depend on the processing

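In all 14 alternatives no member was past adjusted p 0.05 and higher, and none was called higher. The log2 fold change of LINC02381 stayed between -4.16 and -2.90 and past the threshold. The count of members past adjusted p 0.05 and lower was 5, became 4 with DESeq2, with library totals and with no filter, and became 3 with limma on log2(FPKM + 1) and 3 with limma on log2(FPKM + 0.1). Leaving out each library in turn gave 4 to 5. The count of members called lower was 2, became 1 with either limma fit, and ran from 1 to 2 when each library was left out, with 1 without si-SCR replicate 3. The median log2 fold change of the tested members was -0.56, became -0.38 with no filter, where more members entered, and ran from -0.61 to -0.44 when each library was left out. HOXD13 changed sign, at 0.056 with library totals and 0.041 and 0.051 with the limma fits, and ran from -0.11 to 0.16 when each library was left out, with 0.16 in the fit that dropped si-SCR replicate 2 and 0.074 in the fit that dropped si-CyCoNP replicate 3. The cause was not tested.

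Same-numbered libraries of the groups had correlated deviations of 0.0907, 0.0727 and 0.108, not all over 0.1, so the numbers were not taken as pairs. As a hint from the data, each library correlated best with its own number. With the replicate number as a block, 5 members were past the threshold and lower, 2 were called lower, and the median was -0.55.

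The filter removed 22 members. HOXD1 rests on 4 to 37 counts a library, so its size is the least certain of the called values, and differences in HOXA and HOXB could not be seen at this depth.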
